A study of Mus musculus with 20 samples.

Results

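Among the H3K27ac regions measured in differentiating mouse neurons, 5178 carried a pulse of the mark: it rose from progenitors to day 1 neurons and was back down at day 10. They were chosen by their merged enrichment values at the 3 stages. They were 3.75% of the 138116 regions narrower than 1500 bp and came from a table of 140641 regions in all. A region was counted when its enrichment at day 1 exceeded that in progenitors by at least 1 on the log2 scale, which is 2-fold, and was at least 1 lower again at day 10. The same values describe them, so the size of their rise and fall is a description and not a finding. Each stage has 1 value per region, which the authors made by merging both libraries, so no replicate error can be given and no test between stages was possible.

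H3K27ac is acetylation of lysine 27 on histone H3. The acetyltransferases p300 and CBP place it, histone deacetylases remove it, and it marks promoters and enhancers that are in use. Enhancers are often used in one cell type or at one stage only, and many lose the mark again when the cells move on. In a bulk culture, a higher value can mean more cells carrying the mark or more of it in each cell, and these cannot be told apart.

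The stages were neuronal progenitors (NP), neurons at day 1 (TND1) and neurons at day 10 (TND10), all mouse cells of the strain labelled 159.2, with 2 ChIP-seq libraries each. The labels name no allele in any group and no agent at these stages, and do not say whether the libraries of a stage came from separate cultures. FAIRE-seq, which measures open chromatin, was done at the same stages, and day 10 neurons given 200 µM NMDA or only DMSO for 6 h were profiled for H3K27ac and RNA. Whole reads could be recovered from the enrichment values, and in the H3K27ac table they summed to 17989355 in progenitors, 15324141 at day 1 and 11222465 at day 10.

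The RNA values come from day 10, in the NMDA experiment, so the labels of progenitors and day 1 neurons were not checked against marker genes. In the 2 DMSO control libraries all 10 pan-neuronal markers had a mean of at least 10 normalised read counts, with Tubb3, a neuronal tubulin gene, at 25720 and 28109. Of the 2 pluripotency genes, Pou5f1 was listed at 0 in both libraries and Nanog at 9.88 and 4.79. Genes used as markers of other cells were read too. All 7 progenitor, all 4 cell cycle and all 6 fibroblast markers also had a mean of at least 10, as did all 5 oligodendrocyte lineage and 4 of 5 astrocyte markers. A mean of 10 is a low limit, which Olig2 passed with 33.4. The share of all genes that reach it is not given here, so these counts alone do not show which cell types were present. The 10 pan-neuronal genes summed to 133074 and 140366 counts in the 2 libraries, and the 6 fibroblast genes to 107625 and 98399. The fibroblast gene Col3a1 had a mean of 47366, above the highest pan-neuronal mean, 28403 for Map2. The 5 astrocyte genes summed to 5516 and 6707 and the 5 oligodendrocyte lineage genes to 1103 and 983. None of the 3 microglia markers reached a mean of 10. The part of any other cell types in the H3K27ac values was not tested.

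The regions stood low in progenitors and at day 10 and high at day 1. Their median enrichment over the authors' reference, in log2 units, was 0.38 in progenitors (quartiles 0.01 and 0.88), 1.87 at day 1 (1.43 and 2.46) and 0.17 at day 10 (-0.18 and 0.65). Over all regions under 1500 bp the medians hardly moved, at 0.64, 0.65 and 0.62. Ranked among those regions, a typical one of the 5178 stood at percentile 32.5 in progenitors, at 84.7 at day 1 and at 23.7 at day 10. At day 1, 1316 of them (25.4%) were among the strongest 10% of regions, against 88 in progenitors and 98 at day 10. In reads, the median region held 27 in progenitors, 104 at day 1 and 20 at day 10.

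**Figure D1:**
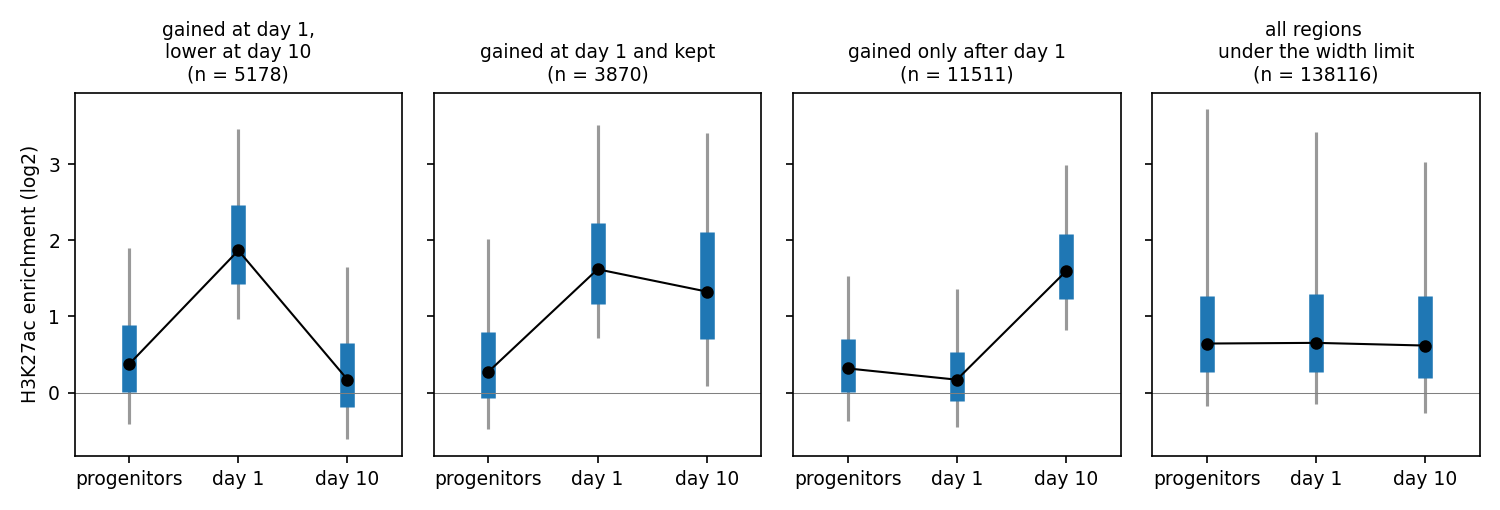
H3K27ac enrichment (log2, vertical axis) at the 3 stages for 4 sets of regions. Black points are medians over regions, thick blue bars the quartiles and thin grey bars the 5th to 95th percentiles, all over regions and not over replicates. The first panel shows the pulse, from a median of 0.38 in progenitors to 1.87 at day 1 and 0.17 at day 10.

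Set against the total of each stage, the same reads show what share of all reads in regions the pulse regions took, which is no independent support for the pulse. The reference was not subtracted, so these are shares of reads and not of the mark. The 5178 regions took 1.29% of all reads in regions in progenitors (95% Wilson interval 1.29% to 1.30%), 5.44% at day 1 (5.43% to 5.45%) and 1.66% at day 10 (1.65% to 1.66%). For the 3870 regions that also rose by day 1 but stayed within 2-fold of that value at day 10, the shares were 1.01%, 3.83% and 4.45%. The 11511 regions that rose only after day 1 took 2.04%, 2.04% and 10.99%. These intervals cover counting error only, because each stage is 1 merged value without a spread between libraries. They also take reads as independent, which reads copied by PCR are not.

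Taking a value of 1, which is 2-fold over the reference, as marked, 4866 (94.0%) of the regions were marked at day 1, against 33.5% of all regions under 1500 bp. Of all 5178, 3881 (74.95%) were below 1 in progenitors and again at day 10. A low level at both ends was common in the table as a whole, where 53.0% of regions under 1500 bp had it. A further 548 (10.6%) were at or above 1 at both ends, so that day 1 was a peak on top of an existing mark, and 18.9% of all regions were marked at both ends. Another 540 (10.4%) began at or above 1 and ended below it, and 209 (4.04%) began below and ended at or above it, each beside 14.1% of all regions.

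Pulse regions that began unmarked were narrower than those that began marked, as in the whole table. The 4090 that began below 1 had a median width of 381.5 bp and medians of 0.22, 1.68 and 0.04 at the 3 stages. The 1088 that began at 1 or above were wider, with a median of 667 bp, and had medians of 1.45, 2.92 and 1.01. Over all regions under 1500 bp the median widths of the same groups were 239 bp and 549 bp. The regions that began marked also had more reads, with a median of 270 at day 1 against 83.5.

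The rise and the fall were moderate in most regions and large in few. The median rise was 1.38 (quartiles 1.16 and 1.70) and the median fall -1.58 (-2.02 and -1.28), where all regions under 1500 bp had medians of -0.06 and -0.11. Both steps reached 1.5 in 1452 regions (28.0%), 2 in 321 (6.20%), 2.5 in 39 and 3 in 3. In the typical region the fall was 1.13 times the rise on the log2 scale.

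**Figure D2:**
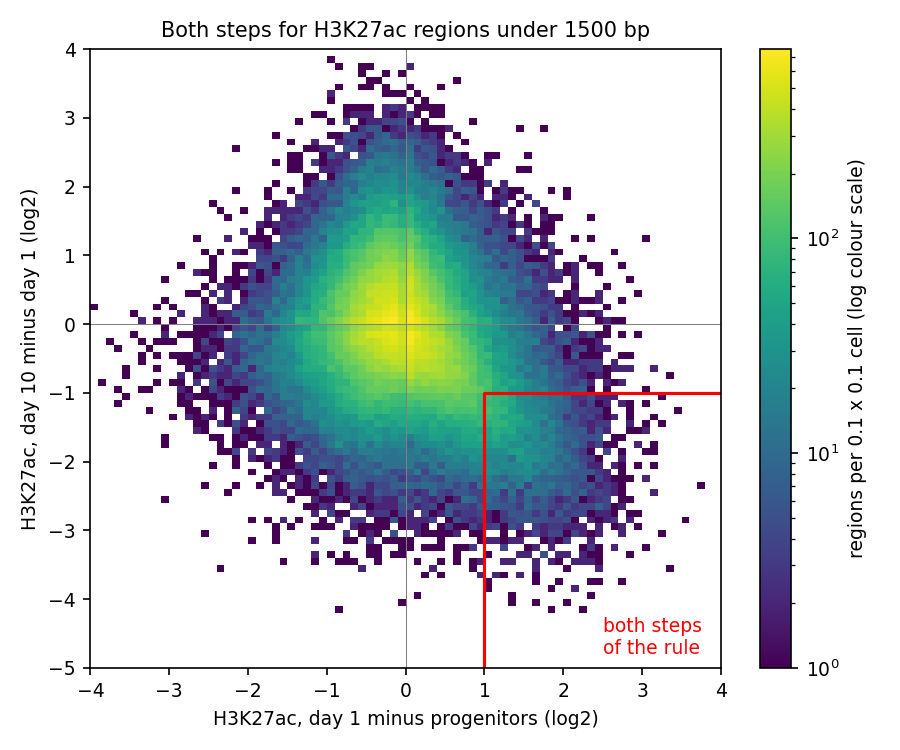
Change from progenitors to day 1 (horizontal) against change from day 1 to day 10 (vertical), both in log2 units, for the 138116 H3K27ac regions under 1500 bp. Colour gives the number of regions per cell on a log scale, and the red lines enclose the 5178 regions that met both steps. They form the continuous edge of the cloud and not a separate group.

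In the values as deposited, most regions ended within 0.5 of their starting level after the pulse, and more ended below it than above it. The change from progenitors to day 10 lay within 0.5 of 0 in 3467 regions (67.0%), with a median of -0.18. Over all regions under 1500 bp 46.6% lay that close to 0, with a median of -0.12. The values contain a constant of 16 reads, which makes the change of a region with few reads smaller. The median change was -0.08 in pulse regions under 50 day 1 reads and -0.29 at 400 or more. It was -0.13 in those that began below 1 and -0.51 in those at 1 or above. For all regions under 1500 bp these 2 medians were 0.10 and -0.78. The part of the constant in the 67.0% was not tested. The change was negative in 3316 pulse regions (64.04%) and positive in 1647 (31.8%), against 55.1% and 42.8% of all. In 442 regions (8.54%) it was -1 or lower and in 77 (1.49%) 1 or higher, where 14.8% and 9.73% of all regions under 1500 bp lay that far down or up. This balance changed with the scaling: scaled to the summed reads of each stage, the median change of the regions then chosen was -0.039, with 2468 below and 2139 above 0.

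In the values as deposited, and with limits of 1, rather more than 50% of the rises at day 1 were followed by a fall. By day 1, 9270 regions under 1500 bp had risen by at least 1 (6.71% of all), and 55.9% of them then fell by at least 1. A further 3870 (41.7%) stayed within 2-fold and 222 (2.39%) rose again, where 8.85% of all regions under 1500 bp rose at that step. Among the 121319 regions that had changed by less than 2-fold at the first step, 9.83% fell at the second, and 13.1% of all regions did. Both steps contain the day 1 value, so an error in it moves them in opposite directions, and the shares are given as a description. The share was below 50% with other scalings: 39.7% with each stage scaled to its summed reads and 49.8% with median-of-ratios factors. Limits of 1.5 and of 2 on both steps gave 48.9% and 39.1%, but these ask for a larger fall as well as a larger rise. The mirror pattern, a loss of at least 1 by day 1 and a gain of at least 1 after it, was met by 496 regions, 6.59% of the 7527 (5.45% of all) that had fallen at the first step.

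The larger the rise, the more often it was followed by a fall. Of the 3991 smallest rises, 46.3% were followed by a fall of at least 1, of rises between 1.5 and 2, 66.4%, and of the 26 rises of 3 or more, 80.8%. Both the rise and the fall contain the day 1 value, and the part of this in the order was not tested. Width went the other way: 65.0% of the gains in regions of 150 to under 200 bp fell back, 55.3% at 400 to under 600 bp and 36.8% in the widest set, which ends below 1500 bp. Across all regions, with or without a gain, the share that fell ran from 5.44% in the narrowest set to 27.2% at 800 to under 1000 bp and was 21.1% in the widest. Wider regions also hold more reads. By day 1 reads, 45.8% of the gains fell back under 50 reads, 60.8% at 100 to under 200 and 56.1% at 400 or more. Of all regions with so many reads, 4.70%, 36.2% and 40.7% fell. The part of reads, or of the shared day 1 value, in the order by width was not tested.

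**Figure D3:**
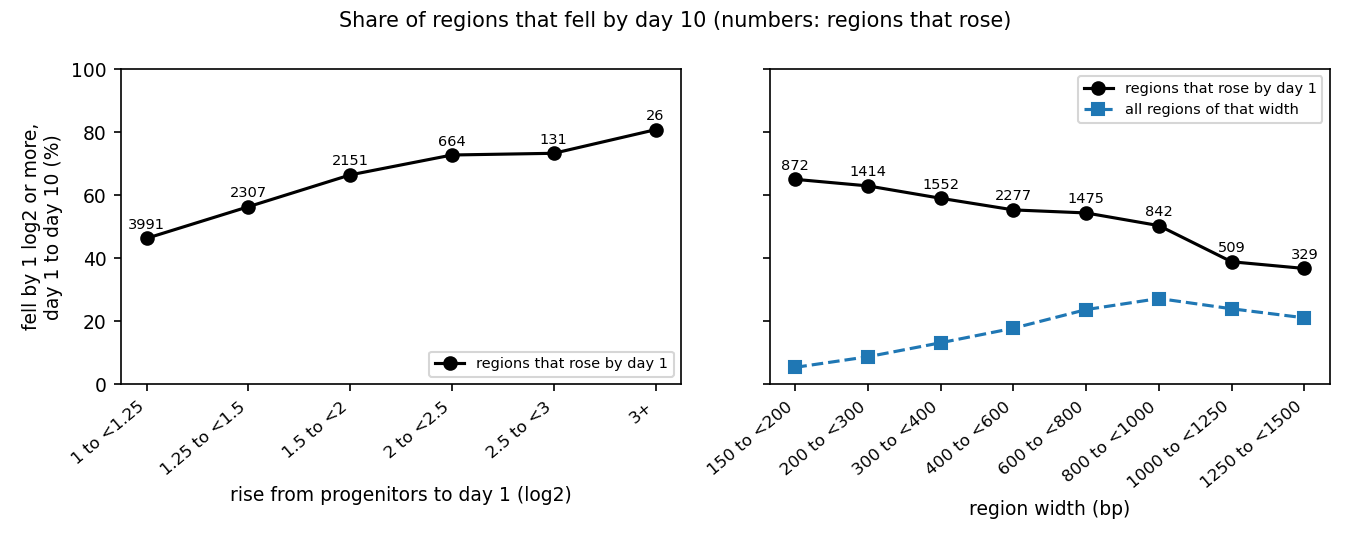
Share of regions whose H3K27ac fell by at least 1 log2 from day 1 to day 10, by the size of the rise before it (left) and by region width (right). Black circles are regions that had risen by at least 1 by day 1, with their number above each point, and blue squares are all regions of that width. The black line climbs from 46.3% to 80.8% with the rise and drops from 65.0% to 36.8% with width.

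The pulse regions were of middling width. Their median was 424 bp (quartiles 281 and 650), against 299 bp (197 and 517) for all regions under 1500 bp, 498.5 bp for those gained at day 1 and kept, and 410 bp for those gained only after day 1. They made up 1.59% of regions of 150 to under 200 bp, 6.80% at 600 to under 800 bp and 3.74% in the widest set. Narrow regions hold few reads, with a median of 11 at day 1 in the narrowest set, and the authors' values contain a constant of 16 reads, which makes the change of a region with few reads smaller. The part of depth in the low share among the narrowest regions was not tested.

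Per kilobase, a typical pulse region had 59.9 reads in progenitors, 242 at day 1 and 46.5 at day 10. The reference signal, which cancels out of both steps and so did not choose the regions, was 46.6 reads per kilobase, against 38.0 over all regions under 1500 bp, 42.9 in those gained at day 1 and kept and 37.3 in those gained only after day 1. The labels do not say what the reference was.

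Regions of 1500 bp or more were outside the rule, and some of them showed the same course. Of 2525 such broad regions, 115 met both steps, a share of 4.55% beside the 3.75% of narrower regions. Their medians were above 1 at all stages, at 1.60 in progenitors, 3.32 at day 1 and 1.75 at day 10, so their typical pulse rose from a higher floor. Not all were marked at the ends: region 45452 (1500 bp) stood at 0.87 in progenitors and 0.19 at day 10. Of the 338 broad regions that rose by day 1, 34.0% fell again by at least 1.

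The 3 regions with the largest pulse began and ended below the reference. Region 3196, named by its number in the authors' table and 600 bp wide, went from -0.35 in progenitors to 2.99 at day 1 and -0.55 at day 10. In reads that was 15, 298 and 11, and the exact 95% interval of the ratio of day 1 to progenitor reads ran from 11.9 to 35.9. Region 58348 (1025 bp) went from -0.60 to 2.48 and back to -0.73, and region 20461 (1379 bp) from -0.69 to 2.54 and -0.47. These 3 were the regions with both steps of at least 3.

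The next in size also began and ended low, some of them below and some above the reference. Region 76849 (1003 bp) held 26, 470 and 51 reads, and its values were -0.71, 2.83 and -0.03. Region 90534 (1253 bp) held 53, 502 and 51 reads, and region 115124 (1129 bp) 42, 401 and 42, so that the latter had the same count at both ends. Of the 10 regions with the largest lesser step, the highest value in progenitors was 0.54 and the highest at day 10 was 0.28, both in region 75885, which stood at 3.34 at day 1.

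The regions with the strongest day 1 signal were of the other kind, strongly marked from the start. Region 35998 (714 bp) had the highest day 1 value, 5.98, and stood at 4.12 in progenitors and 2.98 at day 10, from 416, 1559 and 180 reads. Region 70028 (982 bp) stood at 4.13, 5.96 and 4.25 and so ended close to where it began. Region 58299 (1016 bp) went from 4.69 to 5.86 and then to 2.88, far below its start. The largest read counts gave the most precise ratios: region 6743 (1470 bp) held 1078, 2999 and 814 reads, and its ratio of day 1 to progenitor reads had an interval of 2.59 to 2.99.

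Some regions that met the rule kept much of their gain. Region 24448 (1021 bp) rose from -0.40 to 2.89 and was still at 1.88 at day 10, and region 28515 (1081 bp) went from -0.12 to 3.36 and 2.06. Regions 86134 and 86136, next but one to each other in the numbering, both ended far above their start, with changes from progenitors to day 10 of 1.89 and 1.95. For these regions the word transient describes the rule and not the end state.

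Others ended far below their start, after a small last rise. Region 2528 (918 bp) went from 2.11 to 3.20 and then to -0.63, with 244, 539 and 23 reads. Regions 82846 and 82847, which follow each other in the numbering, went from 2.90 to 4.21 and 0.20, and from 2.23 to 3.55 and -0.39. Both began well above the reference and ended near or below it, with changes from progenitors to day 10 of -2.70 and -2.62.

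The limits of the rule cut through a continuum. Just inside the limit on the rise, region 132827 rose by 1.00 from 2.94 to 3.94, and just outside, region 71972 went from 2.47 to 3.46, a change of 0.997. At the limit on the fall, region 28928 changed by -1.01 and region 43352 by -0.997. At the limit on width, region 31858 of 1499 bp had values of 0.36, 1.89 and 0.47, and region 45452 of 1500 bp had 0.87, 2.98 and 0.19. Exactly on a limit stood 155 of the 5178 regions for the rise and 77 for the fall.

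The depth behind a region was modest. Day 1 reads ran from 17 to 2999, with 841 regions (16.2%) under 50 and 1217 (23.5%) at 200 or more. The exact 95% intervals of the read ratios of day 1 to progenitors and of day 1 to day 10 lay above 1 in all 5178, which the rule itself brings about, and both lay above 2 in 3291 (63.6%). The narrowest regions were the least certain: region 830 (151 bp) held 4, 27 and 1 reads, and its ratio of day 1 to progenitor reads could lie anywhere from 2.35 to 26.5. At 0 reads stood 9 regions in progenitors and 28 at day 10.

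The pulse regions lay next to each other in the authors' numbering, which the rule did not use. Of the 5178, 3050 (58.9%) had another pulse region directly before or after them, while 6.50% of all regions had one beside them. Of the places 1 step away from a pulse region, 37.3% were held by another, at 10 steps 11.4%, at 100 steps 5.28% and at 1000 steps 3.33%, near the 3.68% of the whole table. The labels do not say what order the numbers follow, and no positions were used, so a distance in numbers is not a distance in the genome. At 1 step, places around regions gained at day 1 and kept were held by their own kind in 22.1% of cases (2.75% of the table), and those around regions gained only after day 1 in 32.5% (8.18%).

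**Figure D4:**
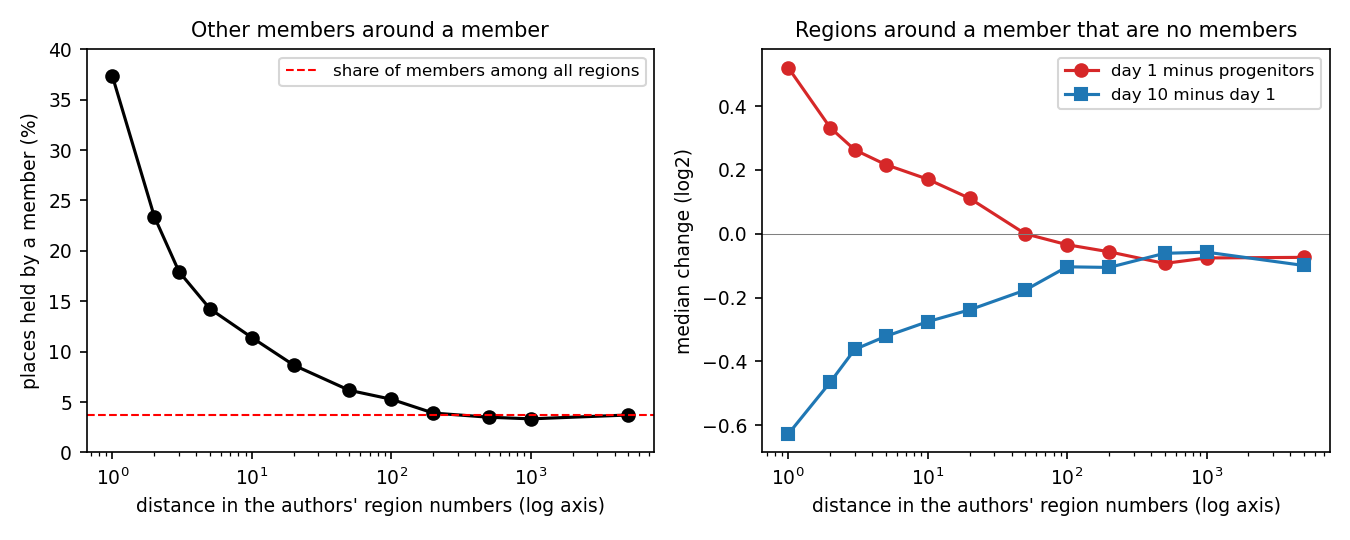
Left, share of places at a given distance from a pulse region, counted in the authors' region numbers (log axis), that were held by another pulse region, with the share in the whole table as a dashed line. Right, median change in log2 units of the regions at that distance that were not pulse regions. The share falls from 37.3% at 1 step to 3.33% at 1000, and the medians go from 0.52 and -0.63 to -0.08 and -0.06.

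In their medians, neighbours that did not meet the rule followed the same course with a smaller size. The 5968 other regions under 1500 bp that stood directly beside a pulse region had a median rise of 0.52 and a median fall of -0.63. Over all 132938 regions outside the set these medians were -0.08 and -0.07. At 10 steps the medians were 0.17 and -0.28, and at 100 steps -0.03 and -0.10. Of the direct neighbours 11.7% rose by at least 1 and 24.0% fell by at least 1, against 3.08% and 9.69% of all regions outside the set. Broad regions did likewise: of 128 broad regions beside a pulse region, 51 (39.8%) met both steps, against 4.55% of all broad regions. A raised first step was also seen beside regions gained at day 1 and kept. The other regions under 1500 bp there, which can include pulse regions, had a median rise of 0.45 and a median fall of -0.20. Of them 13.5% rose and 18.3% fell by at least 1.

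Company went with the size of the pulse. Of the 2422 regions with the smallest lesser step of the 2, 46.1% had a pulse region beside them, where it was between 1.5 and 2, 73.7%, and between 2 and 2.5, 90.1%. For the 39 regions at 2.5 or more it was 84.6%. The share also rose with reads, from 54.0% under 50 day 1 reads to 71.2% at 400 or more, and depended little on width (61.5% under 300 bp, 59.9% at 1000 bp or more). The 2128 regions that stood alone had a median rise of 1.28 and fall of -1.45, and the 550 in runs of 5 or more 1.53 and -1.89.

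Adjacent pulse regions resembled each other more in their ends than in their rise. Over the 1932 adjacent pairs, Pearson's r was 0.59 for the progenitor value, 0.50 for the day 1 value, 0.60 for the day 10 value, 0.34 for the rise, 0.41 for the fall and 0.59 for the change from progenitors to day 10. The pairs share libraries and can share members, and the rule trims the rise and the fall, so these are descriptions. Within runs of 3 or more the SD of the change from progenitors to day 10 was 0.42, against 0.59 over all regions in such runs.

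The 5178 regions formed 3246 runs of consecutive numbers, of which 1118 held 2 or more, 91 held 5 or more and 3 held 12. In the first of the longest, regions 35982 to 35993, the day 10 values lay between -0.46 and 0.39, and 11 of 12 ended below their start. Its strongest member, region 35987 (1080 bp), went from 1.69 to 3.88 and 0.02, with 124, 625 and 28 reads. Region 35994, which follows, rose by 1.01 but fell by only 0.65, and regions 35995 to 35998 were pulse regions again, the last of them the region with the highest day 1 value of all.

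The second longest run, regions 58316 to 58327, also ended low. Its changes from progenitors to day 10 ran from -1.43 to -0.04, so every member ended below its start. Region 58319 (911 bp), its strongest at day 1, went from 2.22 to 3.74 and 1.37, and region 58320 from 1.75 to 3.67 and 0.32. The third run, regions 78916 to 78927, came back to its starting level, with a median change from progenitors to day 10 of -0.02. In that run, region 78922 (798 bp) stood at 2.10, 4.81 and 2.61, while its neighbour 78921 (840 bp) went from 0.62 to 3.75 and kept a level of 1.97.

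**Figure D5:**
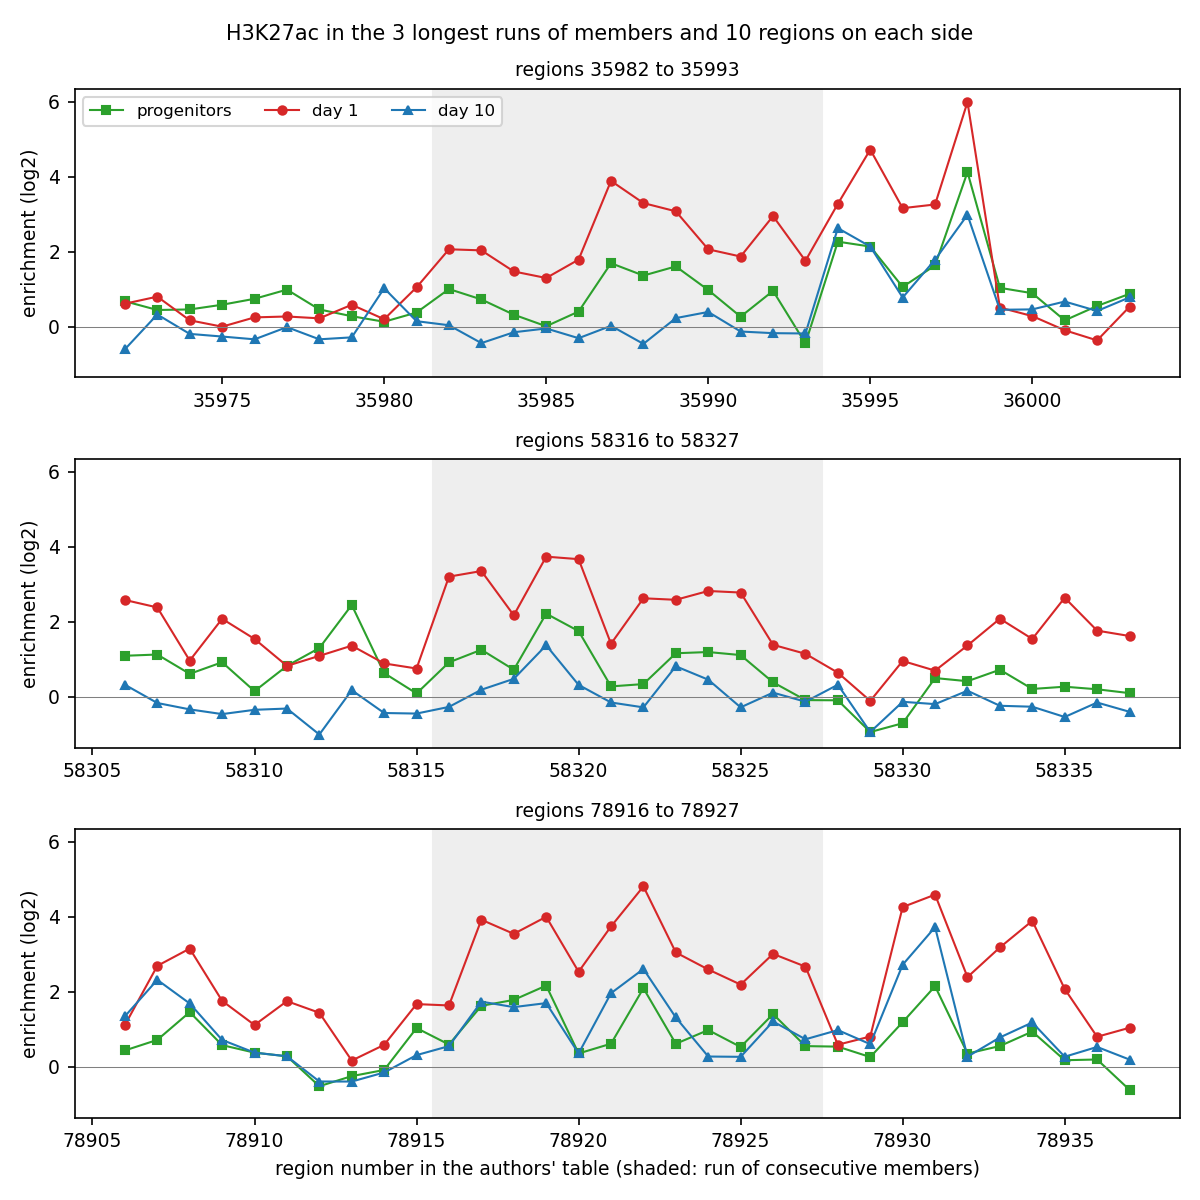
H3K27ac enrichment (log2) at each region in the 3 longest runs of consecutive pulse regions (shaded) and in 10 regions on each side, by the authors' region number. Green squares are progenitors, red circles day 1 and blue triangles day 10, 1 merged value each, and lines only join points of a stage. Day 1 lies above both other stages throughout the shaded runs, and day 10 lies below progenitors in most of the first and in all of the second.

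The regions were spread unevenly over the table. Cut into 2812 blocks of 50 consecutive numbers, 1362 blocks (48.4%) held no pulse region, while 94 blocks (3.34%) with 10 or more held 1287 of them (24.9%). The fullest block, regions 58301 to 58350, held 32, with a median rise of 1.54 and fall of -2.37. Of the 17 other regions under 1500 bp in it, 13 had a positive first and a negative second change, and 17 of its 50 regions ended at least 1 below progenitors. Blocks 20401 to 20450 and 20451 to 20500, which adjoin, held 28 and 26, and of their 22 and 23 other regions 21 and 21 went up and then down. In the latter the median change from progenitors to day 10 was 0.02, against -0.76 in the fullest block, so dense groups ended at different levels. In the next fullest blocks listed, the other regions went up and then down less often. They did so in 12 of 24 in block 78901 to 78950, 18 of 27 in 102551 to 102600 and 18 of 29 in 82551 to 82600. The share of all regions with this course is not given here, so these counts have no background beside them. These runs and blocks were picked for their number of pulse regions.

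The same limits applied to FAIRE, the measure of open chromatin at the same stages, met few regions. Of 62867 FAIRE regions under 1500 bp, 28 (0.0445%) rose by at least 1 from progenitors to day 1, and 11 (0.0175%) met both steps, while 5481 (8.72%) fell by at least 1 from day 1 to day 10. Over all FAIRE regions the median change was -0.22 from progenitors to day 1 and -0.40 from day 1 to day 10. None of the 11 had another of them directly beside it in the numbering. Their median day 1 count was 39 reads, and reads in FAIRE regions summed to 2478974, 1919377 and 1195178 at the 3 stages, far fewer than in the H3K27ac table. The part of this depth, or of the downward medians, in these counts was not tested. FAIRE and H3K27ac regions are numbered separately and were not matched, and the values of the tables were not compared.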

How the data were processed

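The authors deposited the chromatin tables as log2 values named merged enrichment, 1 per region and stage with both libraries merged, beside a region number and a width in bp. The RNA table holds a signal per gene and library, named normalised read counts by the authors. Per the submitters' processing notes the build was mm9 and the tools TopHat, Bowtie, HTSeq and DESeq. Their versions and roles, the peak caller and any matching of depth are not given in the sources used. Region positions and links to genes were not used, and no region identifier was shared between tables, so neither sequences nor other readouts of the same regions are given.

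Each value equalled the log2 of reads plus 16 over a reference scaled by 0.807 plus 16. Reads were recovered for 140640 of 140641 regions (tolerance 1e-05 of a reference read), a step tested on simulated data. Differences within 1e-09 of a limit counted as on it, which adds 75 regions. Without replicate values no test was run. Named regions follow a rule: the 10 with the largest lesser step, the 5 with the highest day 1 value, the most day 1 reads and the largest and smallest change from progenitors to day 10, the 3 widest and narrowest, and those nearest the limits. Not all are printed. The regions, lists and rules were chosen with earlier results of these data known. Runs and blocks were added after seeing the data. Map2 was matched through an older symbol. Python 3.11.15, numpy 2.4.6 and scipy 1.17.1 were used, with 11 alternative settings and 1 added after seeing the data.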

Additional observations from a re-analysis of the deposited data

How the results depend on the processing

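No paired analysis was possible because the H3K27ac values are merged over both libraries of a stage, and for the same reason no library could be left out. The alternatives below choose the regions anew. In each, the count of regions is followed by the share of day 1 gains that fell, the medians of the rise, the fall and the change from progenitors to day 10 (log2), and the width. Limits of 1.5 gave 1452 regions, 48.9%, 1.83, -2.06, -0.20 and 533 bp, and limits of 2 gave 321, 39.1%, 2.25, -2.48, -0.19 and 609 bp. Values with 1 read in place of 16 gave 11257, 52.3%, 1.58, -1.92, -0.30 and 290 bp, and with 64 reads 1424, 53.2%, 1.28, -1.42, -0.12 and 680 bp. Centring each stage on its median gave 4840, 54.5%, 1.40, -1.58, -0.16 and 434 bp. Scaling to summed reads gave 4608, 39.7%, 1.45, -1.50, -0.039 and 425 bp, and median-of-ratios factors 4819, 49.8%, 1.40, -1.55, -0.13 and 429 bp. At least 50 day 1 reads left 4337, 58.3%, 1.45, -1.68, -0.21 and 488 bp, and at least 100 reads over the stages 3607, 53.7%, 1.48, -1.74, -0.22 and 547 bp. Widths under 1000 bp gave 4859, 57.6%, 1.37, -1.57, -0.18 and 406 bp. Without a limit on width there were 5293 and, without the tolerance (added after seeing the data), 5103, with the other values nearly as reported. The signs of the median rise and fall were fixed by the rule in every alternative. The median change from progenitors to day 10 was free to change sign and stayed negative, from -0.30 with 1 read to -0.039 with summed reads. The share of gains that fell did not stay above 50%: it was below it with limits of 1.5 and of 2, with summed reads and with median-of-ratios factors. Limits of 1.5 and of 2 also ask for a larger fall, so their shares count another event. Scaling to summed reads shared 3931 regions, 75.9% of the 5178 and 85.3% of its own, and shifted the median change of all regions from progenitors to day 10 from -0.12 to 0.25. The cause of these shifts was not tested beyond their construction. Median day 1 reads per region ran from 11 in the narrowest set of regions to 414 in the widest.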
